A study of Mus musculus with 12 samples.

Results

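The 36 genes described here are the working parts of receptor signalling through heterotrimeric G proteins: 12 G alpha subunits, 5 G beta subunits, 10 G gamma subunits, 3 receptor kinases, 2 beta-arrestins and the 4 beta-type phospholipases C. They were chosen by name, as the genes that RGS proteins act on or beside, and each symbol matched exactly 1 of the 49585 genes in the expression table. Of the 36, 34 reached 1 count per 1000000 reads (CPM) in at least 3 of 12 libraries and entered the test across 16126 genes. The rule uses no measured value, but the members were chosen with earlier results of these data known.

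The study sequenced polyadenylated RNA from whole lungs of Balb/cJ mice with and without the gene Rgs4, and asked about Rgs4 in an asthma setting. The 4 groups had 3 libraries each: Rgs4 knockout lungs exposed to Aspergillus fumigatus (KO, Af; libraries 12 to 14), Rgs4 knockout lungs given phosphate-buffered saline (KO, PBS; libraries 9 to 11), wild-type lungs exposed to Aspergillus fumigatus (WT, Af; libraries 18 to 20) and wild-type lungs given PBS (WT, PBS; libraries 15 to 17). The labels give neither the form, route and timing of the exposure nor the age of the mice, and do not say whether the knockout removed Rgs4 in every cell. They also do not say whether each library came from 1 animal, so p-values measure the spread between libraries. Library numbers run in blocks of 1 group each, and the labels do not say whether they follow an order of processing. If they do, that order and group cannot be told apart.

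A heterotrimeric G protein is made of an alpha subunit that binds a guanine nucleotide and a beta-gamma pair. An activated receptor makes the alpha subunit exchange GDP for GTP and release the pair, and RGS proteins such as RGS4 speed the return to GDP on alpha subunits of the Gi and Gq classes. In the lung, Gq raises calcium through phospholipase C beta and contracts airway smooth muscle, Gs relaxes it through cyclic AMP, and Gi guides leukocyte movement towards chemokines. Receptor kinases and beta-arrestins switch the receptors off and take them into the cell.

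Rgs4 itself matched the genotype labels in all 12 libraries. It was at 1.14, 1.47 and 0.848 CPM in KO lungs under Af against 48.8, 42.7 and 43.8 CPM in WT lungs under Af, and at 1.10, 1.003 and 0.571 CPM in KO lungs under PBS against 25.8, 20.7 and 22.3 CPM in WT lungs under PBS. Libraries held 20708884 to 30229446 reads, and alveolar type 2 markers, which define lung tissue, summed to between 13507 and 27303 CPM with none of the 7 markers at 0. The first principal component of all tested genes, with 68.4% of the variance, separated Af from PBS libraries. The second, with 8.41%, set KO Af library 12 apart from the other 11.

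Most of these genes changed with Aspergillus, in both directions, and about as often as all genes tested. In KO lungs 61.8% of tested members were called, against 57.9% of all genes, and in WT lungs 55.9% against 51.8%. In KO lungs 21 of 34 tested members were called (Benjamini-Hochberg adjusted p under 0.05, limma), 6 higher and 15 lower under Af than under PBS. Over all genes tested in KO lungs, 28.7% were higher and 29.2% lower. In WT lungs 19 of 34 were called, 7 higher and 12 lower, where 26.2% of all genes were higher and 25.6% lower. The share of members called lower, 44.1% in KO and 35.3% in WT lungs, was above the share of all genes, and the share called higher, 17.6% and 20.6%, was below it. The median log2 change of the members was -0.21 in KO and -0.24 in WT lungs, beside -0.02 over all genes in both. The median size of a member's change regardless of sign, 0.52 in KO and 0.43 in WT lungs, was close to that of all genes, 0.45 and 0.40. The 2 contrasts share no library, but 1 fit of all 12 libraries gives both the same estimate of each gene's spread. Of the called members, 16 were called in both genotypes, which is 76.2% of those in KO and 84.2% of those in WT lungs, and all 16 had the same sign, 5 higher and 11 lower. Over all genes the shares were close to these: 7106 were called in both, which is 76.2% of those in KO and 85.0% of those in WT lungs, and 99.73% of them had the same sign.

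**Figure D1:**
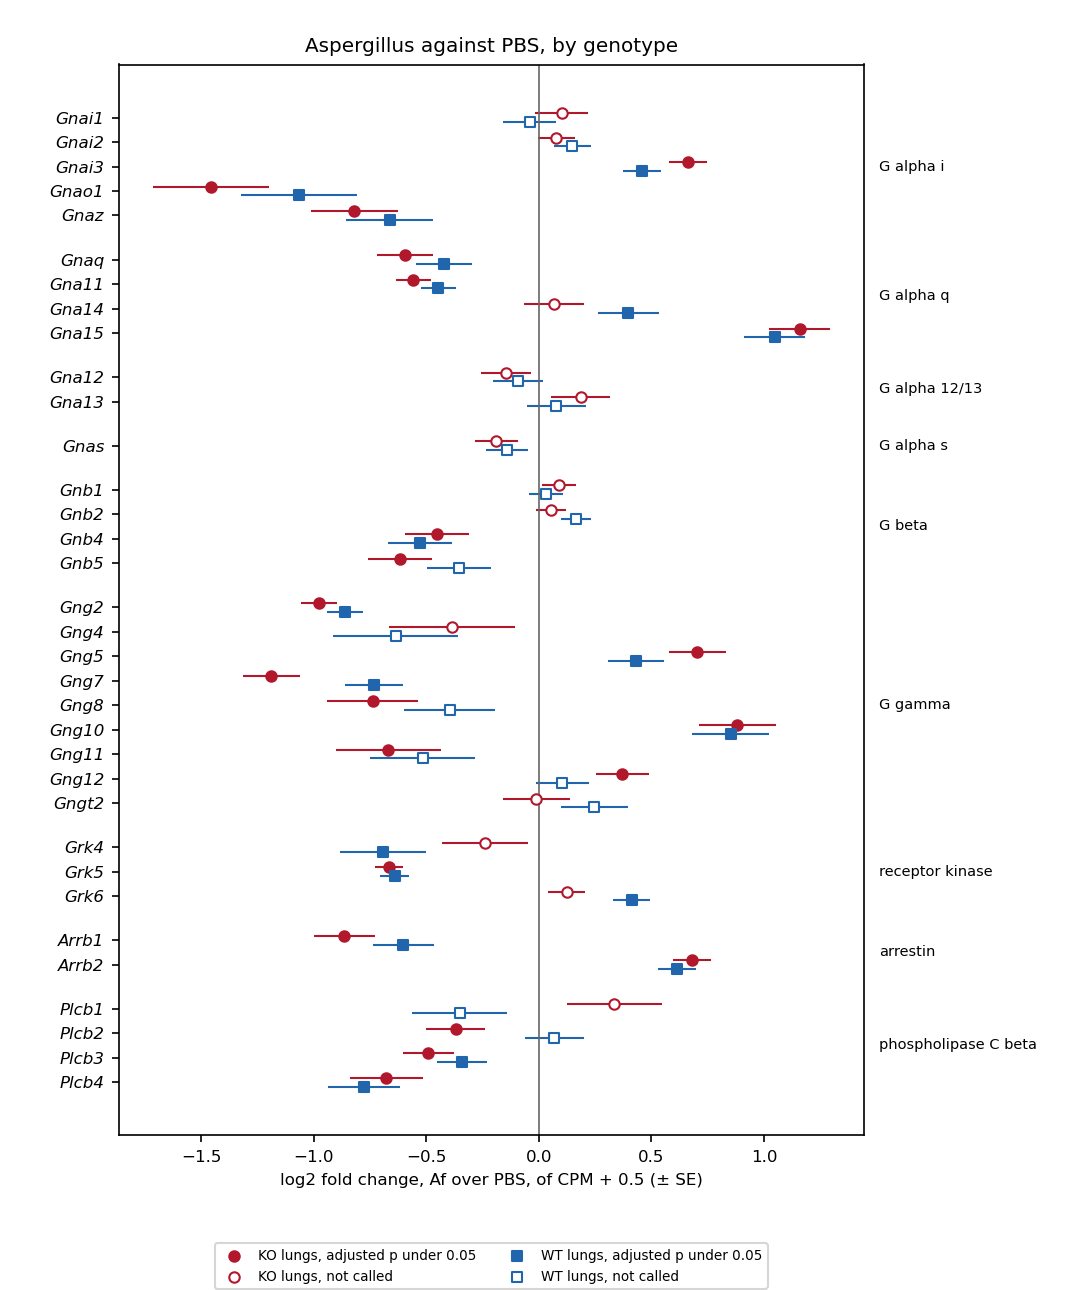
Change of each tested member with Aspergillus: the horizontal axis is the log2 fold change, Af over PBS, of CPM + 0.5, with bars for the standard error; KO lungs are circles, WT lungs squares, 3 libraries per group, and filled symbols have an adjusted p under 0.05. Gna15, Gng10, Arrb2, Gng5 and Gnai3 lie right of 0 with filled symbols in both genotypes, and Gnao1, Gng2 and Gng7 lie farthest left.

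By level per length, the lung's G proteins were led by a few subunits. Averaged over the 4 groups, Gnai2 was at 198 CPM per kilobase of merged exons, Gnb1 at 120, Gnb2 at 94.1, Gnas at 73.2 and Gng11 at 57.7 CPM per kilobase. The order after Gnai2 depends on the length used: per kilobase of the longest transcript Gnai2 was at 337, Gnas at 208, Gnb2 at 172, Gnb1 at 164 and Gng11 at 57.7 CPM. At the other end, Gnb3, the beta subunit known from cone photoreceptors, had 2 to 10 reads per library and Gng3, a gamma subunit known from brain, 3 to 11 reads per library, and neither was tested. The lowest tested members per length were Gng4 at 0.349, Grk4 at 0.556 and Gnaz at 0.764 CPM per kilobase.

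Among the Gi class, which lowers cyclic AMP, the main subunit did not pass the test while a second one rose. Gnai2 (ENSMUSG00000032562, chr9:107614125-107635367, minus strand) was at 746, 813 and 782 CPM under Af against 738, 732 and 748 CPM under PBS in KO lungs. In WT lungs Gnai2 was at 773, 753 and 789 CPM under Af against 689, 717 and 682 CPM under PBS. The Af libraries lay above every PBS library in WT lungs, and overlapped with them in KO lungs. The log2 change of Gnai2 was 0.08 ± 0.08 in KO lungs (SE, adjusted p = 0.438) and 0.15 ± 0.08 in WT lungs (adjusted p = 0.145), so neither was called by limma; DESeq2 called the WT change (0.00351). Gnai3, a closely related subunit, was at 168 to 188 CPM under Af against 109.8 to 115 CPM under PBS in KO lungs, and at 164 to 193 CPM against 119.5 to 138 CPM in WT lungs. Its log2 change was 0.66 ± 0.08 in KO (adjusted p = 5.07e-05) and 0.46 ± 0.08 in WT lungs (adjusted p = 0.000899). As a share of the summed CPM per kilobase of the 5 Gi-class genes, Gnai3 made up 19.8% ± 0.238 under Af against 13.8% ± 0.376 under PBS in KO lungs, and 19.8% ± 1.07 under Af against 16.3% ± 1.10 under PBS in WT lungs (SD, n = 3 each). With the longest transcript as the length these shares of Gnai3 were lower, 12.9% under Af against 8.74% under PBS in KO lungs and 12.9% against 10.4% in WT lungs. Gnai1 stayed between 32.8 and 44.4 CPM in all 12 libraries and was not called in either genotype.

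Gnao1 and Gnaz, the Gi-class subunits best known from neurons, fell. Gnao1 (ENSMUSG00000031748) was at 17.9, 29.5 and 38.5 CPM under Af against 70.3, 77.6 and 79.9 CPM under PBS in KO lungs. In WT lungs Gnao1 was at 27.5, 34.3 and 40.9 CPM under Af against 52.1, 78.4 and 88.9 CPM under PBS. Every Af library was below every PBS library of its genotype, with a wide spread among the WT PBS libraries. The log2 change was -1.46 ± 0.26 in KO (adjusted p = 0.00055) and -1.07 ± 0.26 in WT lungs (adjusted p = 0.00492). These were the largest falls of any member. Gnao1 is also expressed in heart muscle, and 7 cardiac muscle markers summed to 120 to 471 CPM under Af against 996 to 1449 CPM under PBS in KO lungs, and to 128 to 559 CPM under Af against 908 to 1719 CPM under PBS in WT lungs. Of those 7 markers, 5 fell in KO and 3 in WT lungs. The 7 neuronal and neuroendocrine markers summed to 42.9 to 74.0 CPM under Af against 71.1 to 76.5 CPM under PBS in KO lungs, and to 41.2 to 56.0 CPM against 72.1 to 74.0 CPM in WT lungs. Of the 6 of them tested, 2 were called higher and 2 lower in KO lungs, and 0 higher and 3 lower in WT lungs. Their part in the change of Gnao1 was not tested, and in whole lung fewer cells of a type and less RNA per cell cannot be told apart. Gnaz was at 1.77, 2.11 and 1.58 CPM under Af against 2.99, 3.86 and 3.96 CPM under PBS in KO lungs. In WT lungs Gnaz was at 2.30, 2.59 and 1.39 CPM under Af against 3.52, 3.73 and 3.31 CPM under PBS. The groups did not overlap in either genotype. Its log2 change was -0.82 ± 0.19 in KO (adjusted p = 0.00341) and -0.66 ± 0.19 in WT lungs (adjusted p = 0.0131), and the WT call was lost without WT Af library 20 (adjusted p = 0.0521).

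The Gq class, which activates phospholipase C beta, split: its 2 broadly expressed members fell and its blood-cell member rose. Gna11 (ENSMUSG00000034781) was at 72.8, 84.3 and 79.9 CPM under Af against 116, 115 and 118 CPM under PBS in KO lungs, and at 86.7, 91.2 and 81.0 CPM under Af against 113, 116 and 124 CPM under PBS in WT lungs. Gna15 (ENSMUSG00000034792), the subunit known for its expression in blood cells and its coupling to many receptors, was at 13.8, 14.8 and 11.2 CPM under Af against 5.69, 5.24 and 5.98 CPM under PBS in KO lungs, and at 14.6, 12.8 and 14.4 CPM under Af against 7.66, 6.20 and 5.72 CPM under PBS in WT lungs. For both genes no Af library overlapped with a PBS library, and the directions were opposite. Gna11 changed by -0.56 ± 0.08 on the log2 scale in KO (adjusted p = 8.95e-05) and -0.45 ± 0.08 in WT lungs (adjusted p = 0.000558). Gna15 changed by 1.16 ± 0.13 in KO (adjusted p = 2.77e-05) and 1.05 ± 0.13 in WT lungs (adjusted p = 7.92e-05). These were the largest rises of any member. Gnaq, at 68.1 to 101 CPM under Af against 125 to 137 CPM under PBS in KO lungs and 90.5 to 102 CPM against 126 to 134 CPM in WT lungs, fell in both. The WT call of Gnaq was lost without WT Af library 18 (adjusted p = 0.0517).

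Beside the rise of Gna15, the summed level of 10 leukocyte markers was 2394 to 2758 CPM under Af against 1736 to 1889 CPM under PBS in KO lungs, and 2319 to 2712 CPM under Af against 1193 to 1421 CPM under PBS in WT lungs. Of the 10, 9 rose in KO and all 10 in WT lungs, and their part in the change of Gna15 was not tested. Lists for single leukocyte types were less even. Macrophage and monocyte markers rose for 7 and fell for 3 of 10 in each genotype, and their sum was lower under Af. T cell markers rose for 0 of 8 in KO and 7 in WT lungs, and B cell markers for 0 of 6 and 1. Neutrophil markers rose for 3 of 8 in KO and 7 in WT lungs. Eosinophil markers rose for 4 of 7 in each, with 1 lower in WT lungs. As a share of the summed CPM per kilobase of the 4 Gq-class genes, Gna15 was 12.8% ± 2.05 under Af against 4.36% ± 0.306 under PBS in KO lungs, and 12.6% ± 1.15 under Af against 5.16% ± 0.849 under PBS in WT lungs. The summed level of the class did not overlap between exposures: 48.5 ± 3.30 CPM per kilobase under Af against 60.5 ± 0.470 under PBS in KO lungs, and 51.8 ± 1.47 under Af against 59.3 ± 1.17 under PBS in WT lungs (SD, n = 3 each). Gna14, the narrowly expressed relative of Gnaq, was at 24.8 to 33.7 CPM under Af against 27.6 to 30.1 CPM under PBS in KO lungs and 26.0 to 32.2 CPM against 19.9 to 25.7 CPM in WT lungs, with a log2 change of 0.07 ± 0.13 in KO (adjusted p = 0.685) and 0.40 ± 0.13 in WT lungs (adjusted p = 0.0272). The WT call of Gna14 was lost without any of 4 libraries, with adjusted p of 0.0995 without WT PBS 16, 0.0869 without WT PBS 17, 0.0661 without WT Af 19 and 0.101 without WT Af 20.

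The Gq-class genes sit as 2 pairs of same-strand neighbours. Gna15 (chr10:81502306-81524225, minus strand, GRCm38) and Gna11 (chr10:81528724-81545190, minus strand) lie 4498 bases apart, and Gnaq (chr19:16132831-16387463, plus strand) and Gna14 (chr19:16435762-16610820, plus strand) lie 48298 bases apart. Their promoter windows are shown because these neighbours did not move together under Aspergillus. Each runs from 250 bases before to 50 bases after the RefSeq start (GRCm38.p6), on the gene's own strand, 5′ to 3′; Gna15 is chr10:81524176-81524475, Gna11 chr10:81545113-81545412 (both minus strand), Gna14 chr19:16435417-16435716 and Gnaq chr19:16132434-16132733 (both plus strand). Capitals mark matches, on either strand, to the GC box (GGGCGG), a form of the ETS site (GAGGAA) and the CCAAT box (CCAAT). Other forms of the ETS site were not searched or marked.
Gna15: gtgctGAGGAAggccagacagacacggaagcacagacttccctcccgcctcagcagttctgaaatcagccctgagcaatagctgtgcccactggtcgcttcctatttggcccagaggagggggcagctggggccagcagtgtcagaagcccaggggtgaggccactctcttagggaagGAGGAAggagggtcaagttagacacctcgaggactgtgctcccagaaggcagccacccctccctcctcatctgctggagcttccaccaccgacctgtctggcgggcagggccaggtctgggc
Gna11: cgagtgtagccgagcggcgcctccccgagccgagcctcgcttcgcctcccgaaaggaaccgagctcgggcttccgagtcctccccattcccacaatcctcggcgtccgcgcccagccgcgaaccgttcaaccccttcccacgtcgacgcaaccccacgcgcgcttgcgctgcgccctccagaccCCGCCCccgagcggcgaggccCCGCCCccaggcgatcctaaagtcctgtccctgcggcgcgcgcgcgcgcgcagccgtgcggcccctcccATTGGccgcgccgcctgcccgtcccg
Gna14: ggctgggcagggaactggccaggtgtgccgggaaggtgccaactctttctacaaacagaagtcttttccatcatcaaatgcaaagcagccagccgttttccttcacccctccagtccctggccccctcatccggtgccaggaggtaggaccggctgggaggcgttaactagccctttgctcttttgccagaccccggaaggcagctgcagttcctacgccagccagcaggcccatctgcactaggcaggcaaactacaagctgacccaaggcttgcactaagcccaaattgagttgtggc
Gnaq: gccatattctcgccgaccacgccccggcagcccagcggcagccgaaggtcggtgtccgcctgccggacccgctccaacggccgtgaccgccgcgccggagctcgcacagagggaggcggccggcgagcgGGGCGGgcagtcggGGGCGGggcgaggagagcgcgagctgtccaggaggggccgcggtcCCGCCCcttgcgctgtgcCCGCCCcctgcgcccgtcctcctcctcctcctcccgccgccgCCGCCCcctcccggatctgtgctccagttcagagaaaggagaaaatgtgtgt
The 2 members that fell in both genotypes had GC boxes, 2 in Gna11 and 5 in Gnaq, and G or C at 75.0% of bases with 48 CpG dinucleotides in Gna11 and 39 in Gnaq. Gna15 and Gna14 had no GC box, were G or C at 62.3% and 58.0% of bases, and held 6 and 7 CpG dinucleotides. Gna15 held the ETS form GAGGAA 2 times and Gna11 a CCAAT box 1 time. Among 32851 promoter windows of the same length, 35.7% held a GC box, 28.3% the ETS form GAGGAA and 37.4% a CCAAT box, and the median share of G or C was 52.7%. A further 7 motifs were searched on both strands and had no match in these 4 windows: TATAAA (in 13.6% of all windows), the AP-1 site TGANTCA (7.81%), the STAT site TTCNNNNGAA (6.95%), the cyclic AMP half-site TGACG (20.8%), the E-box CACGTG (7.15%), the RUNX core TGTGGT (16.8%) and the glucocorticoid receptor half-site AGAACA (19.0%). No 2 matches overlapped. Elsewhere among the members, GC boxes were found with both directions of change. Gng5 and Gng10, which rose in both genotypes, had 4 and 3, and Gnai3, which also rose, had no GC box. Plcb3 had 6, and 1 window each of Gng7 and Plcb4 had 5 and 7, and these genes fell in both. Gng2 and Grk5 also fell in both, and their windows had no GC box. These matches describe the letters and are not measured binding, and whether any motif bears on the changes was not tested.

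The remaining alpha subunits did not pass the test with Aspergillus in either genotype. Gna12, the close relative of Gna13, was at 99.9, 137 and 109 CPM under Af against 134, 119.8 and 126 CPM under PBS in KO lungs. In WT lungs Gna12 was at 123, 119 and 119 CPM under Af against 142, 123 and 121 CPM under PBS. These ranges overlapped, with log2 changes of -0.15 ± 0.11 in KO (adjusted p = 0.278) and -0.09 ± 0.11 in WT lungs (adjusted p = 0.509). Gna12 was called in KO lungs without KO Af library 13 (adjusted p = 0.0222), and Gna13 without KO Af library 12 (log2 0.36, adjusted p = 0.0031); array weights, a limma option that gives outlying libraries less weight, called both (0.0247 and 0.000907). Gna13 was at 114 to 165 CPM under Af against 118 to 134 CPM under PBS in KO lungs, and at 151 to 179.9 CPM against 151 to 159.9 CPM in WT lungs. Gnas, the stimulatory subunit that raises cyclic AMP, was at 831, 719 and 753 CPM under Af against 856, 839.7 and 928 CPM under PBS in KO lungs. In WT lungs Gnas was at 818, 782 and 734 CPM under Af against 864, 842 and 865 CPM under PBS. Every Af library was below every PBS library of its genotype, yet the log2 changes of -0.19 ± 0.09 in KO (adjusted p = 0.106) and -0.14 ± 0.09 in WT lungs (adjusted p = 0.23) were not called. The change of Gnas in KO lungs was called without KO Af library 12 (adjusted p = 0.0236), and with all libraries by DESeq2 (0.0479), by array weights (0.00891) and with each library scaled to the same total (0.0369).

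**Figure D2:**
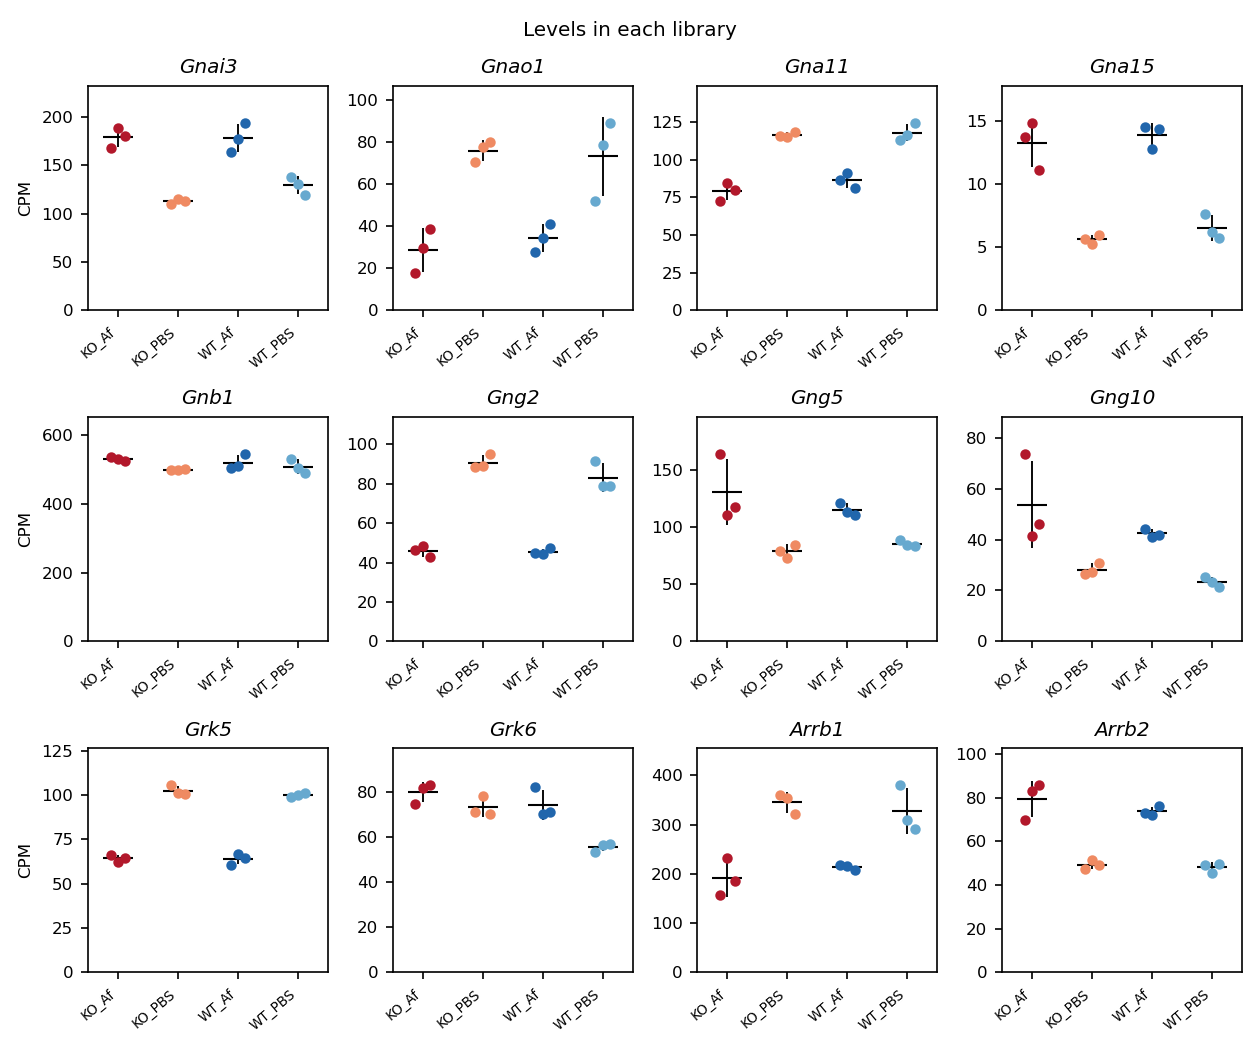
Level of 12 members in each library: the vertical axis of each panel is CPM from 0, points are the 3 libraries of a group, and the line with its bar is the group mean ± SD. Arrb2 and Gna15 are higher under Af than under PBS in both genotypes with no overlap, Arrb1 and Gng2 lower, and Gnb1 keeps to 491 to 544 CPM in all 12 libraries.

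Of the beta subunits, the 2 abundant ones were not called, Gnb4 fell in both genotypes and Gnb5 fell in KO lungs. Gnb1 (ENSMUSG00000029064) was at 536, 529 and 524 CPM under Af against 497, 498 and 501 CPM under PBS in KO lungs. In WT lungs Gnb1 was at 505, 509.8 and 544 CPM under Af against 531, 503 and 491 CPM under PBS. Its log2 change was 0.09 ± 0.08 in KO and 0.03 ± 0.08 in WT lungs, with adjusted p of 0.337 and 0.748. Together Gnb1 and Gnb2 led the class in every group; Gnb1 was 53.8% ± 0.634 under Af against 52.6% ± 0.642 under PBS in KO lungs, and 54.9% ± 1.11 against 56.5% ± 1.21 in WT lungs, by exon length. With the longest transcript as the length, Gnb2 came out above Gnb1 in every group but WT lungs under PBS, at 50.8% against 46.4% in KO lungs and 49.5% against 47.5% in WT lungs under Af. Gnb2 changed by 0.05 ± 0.07 in KO (adjusted p = 0.52) and 0.16 ± 0.07 in WT lungs (adjusted p = 0.0595), and the WT change was called without KO Af 12 (0.0168), and with all libraries by DESeq2 (0.00307), array weights (0.00842), the compared groups alone (0.036) and each library scaled to the same total (0.0406). Gnb4 changed by -0.45 ± 0.14 on the log2 scale in KO lungs (adjusted p = 0.0174) and -0.53 ± 0.14 in WT lungs (adjusted p = 0.00902); the KO call was lost without KO PBS 11 (0.0583) or KO Af 14 (0.0735). Gnb5, the divergent beta subunit that pairs with RGS proteins of the R7 class, changed by -0.62 ± 0.14 in KO lungs (adjusted p = 0.00287) and -0.35 ± 0.14 in WT lungs (adjusted p = 0.0523), where the call was gained without KO Af 12 (0.0285), KO Af 13 (0.0231) or WT PBS 15 (0.0301), and with all libraries by DESeq2 (0.0469), array weights (0.00544), the compared groups alone (0.0423), limma without trend (0.0485) and the filter of 1 CPM in all 12 libraries (0.0491).

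Gamma subunits anchor the beta-gamma pair to the membrane, and of the 9 tested, 3 rose and 4 fell in KO lungs, while 2 rose and 2 fell in WT lungs. Among all genes tested, 28.7% were higher and 29.2% lower in KO lungs, and 26.2% and 25.6% in WT lungs. Gng2 (ENSMUSG00000043004) was at 46.6, 48.3 and 42.8 CPM under Af against 88.4, 88.8 and 94.9 CPM under PBS in KO lungs. In WT lungs Gng2 was at 45.0, 44.2 and 47.3 CPM under Af against 91.6, 78.7 and 79.1 CPM under PBS. Every Af value of Gng2 was well below every PBS value. The log2 change was -0.98 ± 0.08 in KO (adjusted p = 2.27e-06) and -0.86 ± 0.08 in WT lungs (adjusted p = 8.51e-06). Gng7, known for its part in striatal signalling, was at 3.58, 3.68 and 3.01 CPM under Af against 7.25, 9.59 and 8.53 CPM under PBS in KO lungs. In WT lungs Gng7 was at 4.41, 4.10 and 4.27 CPM under Af against 7.28, 6.99 and 7.98 CPM under PBS. It also fell without overlap, by a log2 change of -1.19 ± 0.13 in KO (adjusted p = 1.53e-05) and -0.73 ± 0.13 in WT lungs (adjusted p = 0.000622).

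Gng5 and Gng10 rose in both genotypes. Gng5 (ENSMUSG00000068523) was at 164, 111 and 118 CPM under Af against 79.6, 73.1 and 84.9 CPM under PBS in KO lungs, and at 122, 114 and 111 CPM under Af against 88.5, 84.2 and 83.5 CPM under PBS in WT lungs. Its log2 change was 0.70 ± 0.12 in KO (adjusted p = 0.000559) and 0.43 ± 0.12 in WT lungs (adjusted p = 0.0131). Gng10 (ENSMUSG00000038607) was at 73.5, 41.6 and 46.2 CPM under Af against 26.3, 27.1 and 30.9 CPM under PBS in KO lungs, and at 44.3, 41.1 and 42.0 CPM under Af against 25.4, 23.4 and 21.3 CPM under PBS in WT lungs. No Af library of either gene overlapped with a PBS library, and KO Af library 12 was the highest of all 12 for both. Gng10 changed by 0.88 ± 0.17 in KO (adjusted p = 0.001) and 0.85 ± 0.17 in WT lungs (adjusted p = 0.00155); without library 12 the KO change of Gng10 was 0.64 and that of Gng5 was 0.53, both still called. Of the 1314 exon bases of Gng10, 946 are shared with the same-strand gene Gm20503, so its reads could be divided between them.

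Gng11, Gng8 and Gng12 were called in KO lungs but not in WT lungs, though no difference between genotypes was called. Gng11 was at 73.1, 34.8 and 33.9 CPM under Af against 68.2, 63.5 and 81.1 CPM under PBS in KO lungs. In WT lungs Gng11 was at 42.3, 36.8 and 36.7 CPM under Af against 59.0, 55.3 and 51.7 CPM under PBS. KO Af library 12 lay among the KO PBS values, and the other Af libraries lay below every PBS library of their genotype. The log2 change was -0.67 ± 0.23 in KO (adjusted p = 0.0277) and -0.52 ± 0.23 in WT lungs (adjusted p = 0.0827). The KO call of Gng11 was lost without KO PBS 9 (0.0559), KO PBS 11 (0.0934), KO Af 13 (0.106) or KO Af 14 (0.112), and without KO Af 12 Gng11 was called in both, at -1.03 in KO lungs (adjusted p = 2.14e-05) and with an adjusted p of 0.000925 in WT lungs. With all libraries the WT change was called by array weights (0.000609) and the compared groups alone (0.00197). Gng8, known from olfactory neurons, was at 1.65, 0.965 and 1.08 CPM under Af against 2.27, 2.04 and 2.77 CPM under PBS in KO lungs. In WT lungs Gng8 was at 1.68, 1.31 and 1.16 CPM under Af against 2.11, 2.34 and 1.51 CPM under PBS. The groups overlapped only in WT lungs, and the log2 change was -0.74 ± 0.20 in KO (adjusted p = 0.00849) and -0.40 ± 0.20 in WT lungs (adjusted p = 0.12). Gng12 changed by 0.37 ± 0.12 in KO (adjusted p = 0.0187) and 0.10 ± 0.12 in WT lungs (adjusted p = 0.478), and its KO call was lost without KO PBS 11 (0.0666), KO Af 13 (0.0607) or KO Af 14 (0.0595). Gng4, at 0.460 to 1.43 CPM under Af against 1.07 to 1.36 CPM under PBS in KO lungs, was called in both genotypes only without KO Af 14 (adjusted p = 0.047 in KO and 0.0392 in WT lungs). Gngt2, at 22.3 to 35.4 CPM under Af against 24.1 to 27.9 CPM under PBS in KO lungs, was not called. Without KO Af 12 it was called lower in KO (adjusted p = 0.0381) and higher in WT lungs (adjusted p = 0.0154); array weights also called it lower in KO lungs (0.0278), and a fit of the compared groups alone higher in WT lungs (0.0271).

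By share of summed CPM per kilobase, Gng11 led the gamma class in KO and WT lungs under PBS. Gng11 made up 25.2% ± 5.39 under Af against 40.6% ± 2.11 under PBS in KO lungs, and 24.5% ± 1.23 under Af against 35.4% ± 0.487 under PBS in WT lungs. Gng5 made up 24.2% ± 0.848 under Af against 15.1% ± 0.332 under PBS in KO lungs, and 24.4% ± 0.466 against 18.2% ± 0.764 in WT lungs. Gng10 made up 20.5% ± 1.58 under Af against 11.3% ± 0.454 under PBS in KO lungs, and 18.9% ± 0.245 against 10.5% ± 0.257 in WT lungs. None of these 3 shares overlapped between exposures within a genotype.

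**Figure D3:**
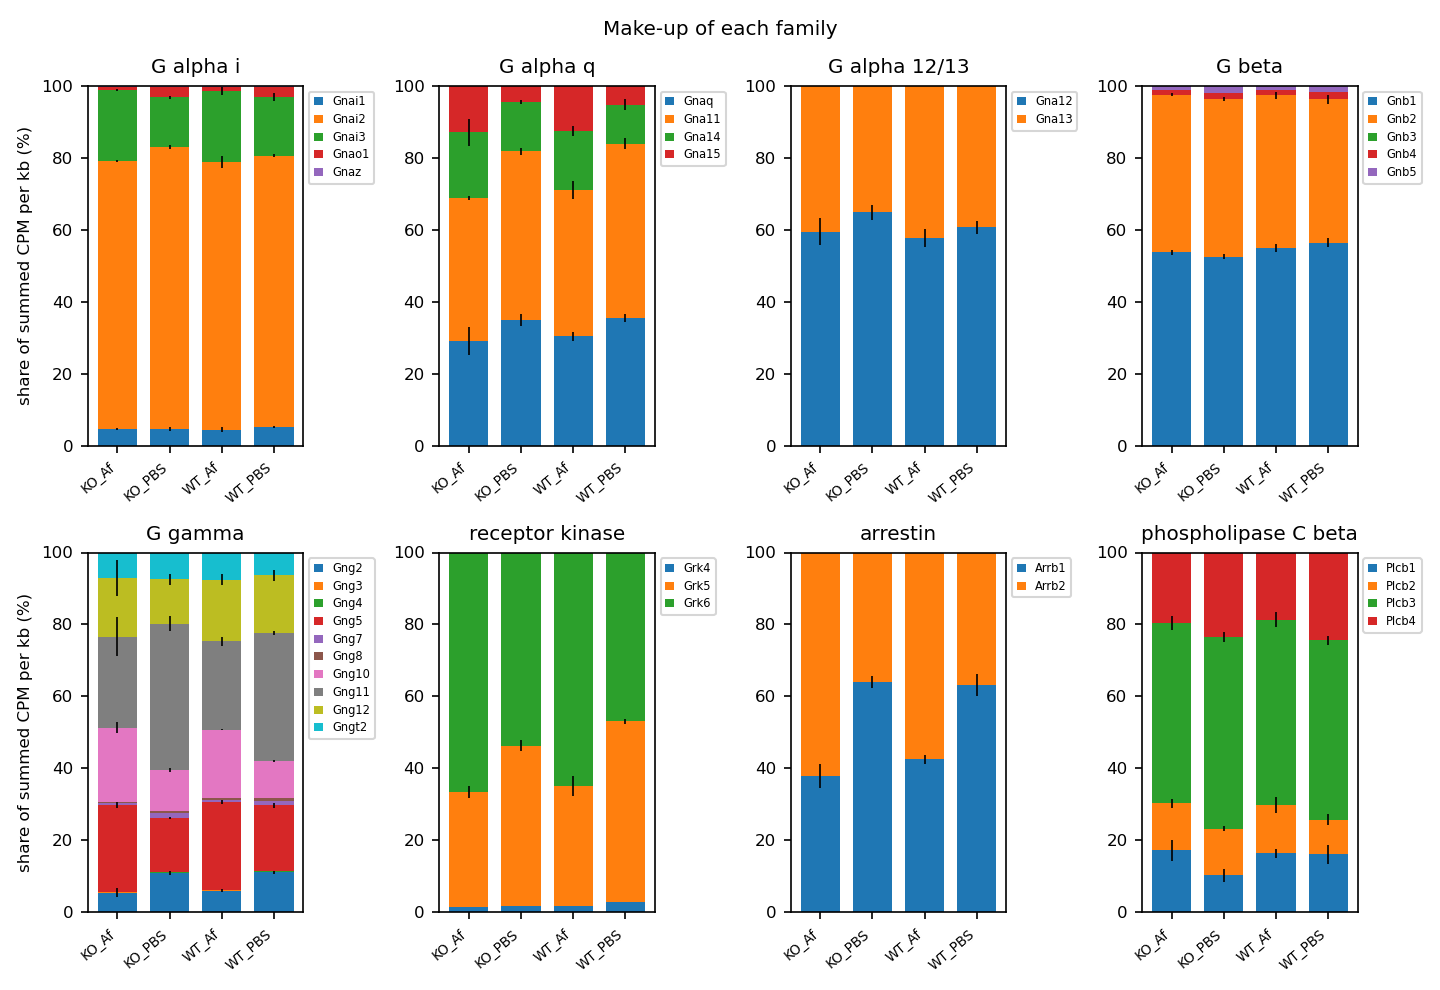
Make-up of each class in each group: bars are the mean share (%) of each gene in the summed CPM per kilobase of exon of its class (3 libraries), and black lines are ± SD of a gene's share drawn at the top of its segment, for genes over 5% other than the topmost. Arrb2 takes 62.1% of the arrestin bar in KO lungs under Af against 36.0% under PBS, and 57.5% against 36.8% in WT lungs.

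The beta-arrestins, which bind phosphorylated receptors, block G protein coupling and lead receptors into clathrin-coated pits, changed in opposite directions. Arrb1 (ENSMUSG00000018909) was at 157, 232 and 185 CPM under Af against 359.9, 354 and 321 CPM under PBS in KO lungs, and at 217, 217 and 208 CPM under Af against 379.6, 309 and 292 CPM under PBS in WT lungs. Arrb2 (ENSMUSG00000060216) was at 69.9, 82.8 and 85.6 CPM under Af against 47.3, 51.4 and 49.1 CPM under PBS in KO lungs, and at 73.0, 71.8 and 76.1 CPM under Af against 49.3, 45.3 and 49.5 CPM under PBS in WT lungs. In both genotypes every Af library was below every PBS library for Arrb1 and above it for Arrb2. Arrb1 changed by -0.86 ± 0.14 on the log2 scale in KO (adjusted p = 0.000234) and -0.60 ± 0.14 in WT lungs (adjusted p = 0.00319). Arrb2 changed by 0.68 ± 0.08 in KO (adjusted p = 4.51e-05) and 0.61 ± 0.08 in WT lungs (adjusted p = 0.000129). Of the summed CPM per kilobase of the pair, Arrb2 held 62.1% ± 3.28 under Af against 36.0% ± 1.76 under PBS in KO lungs, and 57.5% ± 1.33 under Af against 36.8% ± 3.10 under PBS in WT lungs. The sum of the pair overlapped between exposures, at 45.1 ± 5.78 CPM per kilobase under Af against 48.2 ± 1.95 under PBS in KO lungs, and 45.0 ± 0.350 under Af against 46.1 ± 4.49 under PBS in WT lungs. The 10 endothelial markers, beside Arrb1, summed to 2651 to 3693 CPM under Af against 4981 to 5153 CPM under PBS in KO lungs, and to 3054 to 3724 CPM under Af against 3752 to 4461 CPM under PBS in WT lungs. Of these 10, 6 were called lower and 0 higher in each genotype. The leukocyte marker sums given above moved the same way as Arrb2, and the part of these markers in either arrestin was not tested.

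Of the receptor kinases, Grk5 fell in both genotypes, Grk6 rose in WT lungs and Grk4 fell in WT lungs. Grk5 was at 66.0, 62.4 and 64.5 CPM under Af against 105, 101 and 100.4 CPM under PBS in KO lungs. In WT lungs Grk5 was at 60.7, 66.6 and 64.7 CPM under Af against 98.6, 100.2 and 101 CPM under PBS. Its log2 change of -0.67 ± 0.06 in KO (adjusted p = 6.34e-06) and -0.64 ± 0.06 in WT lungs (adjusted p = 1.23e-05) had the smallest standard error of any member. Grk6 (ENSMUSG00000074886), a kinase abundant in immune cells, was at 74.9, 81.8 and 82.9 CPM under Af against 71.3, 78.4 and 70.2 CPM under PBS in KO lungs. In WT lungs Grk6 was at 82.0, 70.1 and 71.1 CPM under Af against 53.3, 56.7 and 57.0 CPM under PBS. Only the WT libraries separated by exposure. The log2 change of Grk6 was 0.12 ± 0.08 in KO lungs (adjusted p = 0.219) and 0.41 ± 0.08 in WT lungs (adjusted p = 0.00154). Grk4, a low-level kinase of this class, was at 2.04, 2.71 and 1.73 CPM under Af against 3.16, 2.30 and 2.42 CPM under PBS in KO lungs. In WT lungs Grk4 was at 1.68, 2.49 and 2.32 CPM under Af against 3.81, 3.21 and 4.35 CPM under PBS. Its Af and PBS values overlapped in KO but not in WT lungs, and its log2 change was -0.24 ± 0.19 in KO (adjusted p = 0.302) and -0.69 ± 0.19 in WT lungs (adjusted p = 0.0102). Grk6 made up 66.5% ± 1.67 of the class by CPM per kilobase under Af against 53.7% ± 1.88 under PBS in KO lungs, and 64.9% ± 3.16 under Af against 47.0% ± 0.685 under PBS in WT lungs. By the longest transcript, Grk6 rather than Grk5 led the class in WT lungs under PBS, at 53.2%.

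The phospholipases C beta, which cleave a membrane lipid into the messengers that release calcium and activate protein kinase C, were called only downwards, 3 of 4 in KO and 2 of 4 in WT lungs. Among all genes tested, 29.2% were called lower in KO and 25.6% in WT lungs, and a class of 4 genes gives only a rough share. Plcb3 (ENSMUSG00000024960), the highest of the class per length, was at 79.4, 111 and 93.4 CPM under Af against 130.0, 137 and 128 CPM under PBS in KO lungs, and at 90.5, 107 and 106 CPM under Af against 124, 126 and 134 CPM under PBS in WT lungs. Plcb4 was at 36.1, 43.7 and 63.9 CPM under Af against 72.7, 78.2 and 73.2 CPM under PBS in KO lungs, and at 42.2, 49.3 and 49.8 CPM under Af against 79.1, 84.0 and 79.3 CPM under PBS in WT lungs. Both were lower in every Af library than in every PBS library of the genotype. Plcb3 changed by -0.49 ± 0.11 in KO (adjusted p = 0.00286) and -0.34 ± 0.11 in WT lungs (adjusted p = 0.0231), and the WT call was lost without WT PBS 16 (0.0501), WT PBS 17 (0.0757) or WT Af 18 (0.0925). Plcb4 changed by -0.68 ± 0.16 in KO (adjusted p = 0.00364) and -0.78 ± 0.16 in WT lungs (adjusted p = 0.00189). Plcb2, the isoform typical of blood cells, changed by -0.37 ± 0.13 in KO (adjusted p = 0.0298) and 0.07 ± 0.13 in WT lungs (adjusted p = 0.684). The KO call was lost without KO PBS 9 (0.0811), KO PBS 10 (0.0506), KO PBS 11 (0.073), KO Af 12 (0.0874) or KO Af 14 (0.0855). Leukocyte marker sums given above were higher under Af in both genotypes, while Plcb2 was called higher in neither, and their part in Plcb2 was not tested. Plcb1 was not called in either genotype, at 0.33 ± 0.21 in KO (adjusted p = 0.192) and -0.35 ± 0.21 in WT lungs (adjusted p = 0.179). The summed level of the class was 27.2 ± 4.61 CPM per kilobase under Af against 35.5 ± 0.785 under PBS in KO lungs, and 28.2 ± 2.04 under Af against 37.0 ± 1.64 under PBS in WT lungs.

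Loss of Rgs4 left most members without a call. Under PBS, 1 of 34 tested members differed between KO and WT lungs, Grk6, against 3.55% of all genes. An unadjusted p under 0.05 was reached by 8 of the 34 members, beside 2797 of the 16126 genes tested. Grk6 was at 71.3, 78.4 and 70.2 CPM in KO lungs under PBS against 53.3, 56.7 and 57.0 CPM in WT lungs under PBS. Every KO library was above every WT library, with a log2 difference of 0.39 ± 0.08 (adjusted p = 0.0255). The call of Grk6 was lost without any 1 of the 6 PBS libraries, with adjusted p of 0.077 without KO PBS 9, 0.13 without KO PBS 10, 0.0681 without KO PBS 11, 0.0877 without WT PBS 15, 0.0588 without WT PBS 16 and 0.0689 without WT PBS 17. Beside it, the 10 leukocyte markers summed to 1736 to 1889 CPM in KO lungs under PBS against 1193 to 1421 CPM in WT lungs under PBS, and 4 of them were called higher in KO lungs. Other lists separated there as well. The 10 endothelial markers summed to 4981 to 5153 CPM in KO against 3752 to 4461 CPM in WT lungs, with 2 called higher. The 8 neutrophil markers summed to 284 to 525 CPM against 137 to 222 CPM, also with 2 called higher. T and B cell sums were higher in KO lungs without overlap, and fibroblast and ciliated cell sums lower. The part of any of these lists in the difference of Grk6 was not tested. Plcb1 was lowest relative to WT, at 49.1, 35.9 and 37.3 CPM in KO lungs under PBS against 52.9, 67.1 and 79.2 CPM in WT lungs under PBS. Its groups did not overlap, but the log2 difference of -0.69 ± 0.21 was not called (adjusted p = 0.102). It was called without KO Af 13 (0.0468), and with all libraries by DESeq2 (0.0252) and array weights (0.0107). Gnb2, at 324, 326 and 343 CPM in KO lungs against 283, 284 and 291 CPM in WT lungs under PBS, also did not overlap and was not called, with a difference of 0.21 ± 0.07 (adjusted p = 0.116); DESeq2 (0.00193) and array weights (0.00822) called it. Without KO Af 12, Gnb2 (0.0317), Gna13 (0.0415) and Gngt2 (0.0163) were called under PBS besides Grk6.

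**Figure D4:**
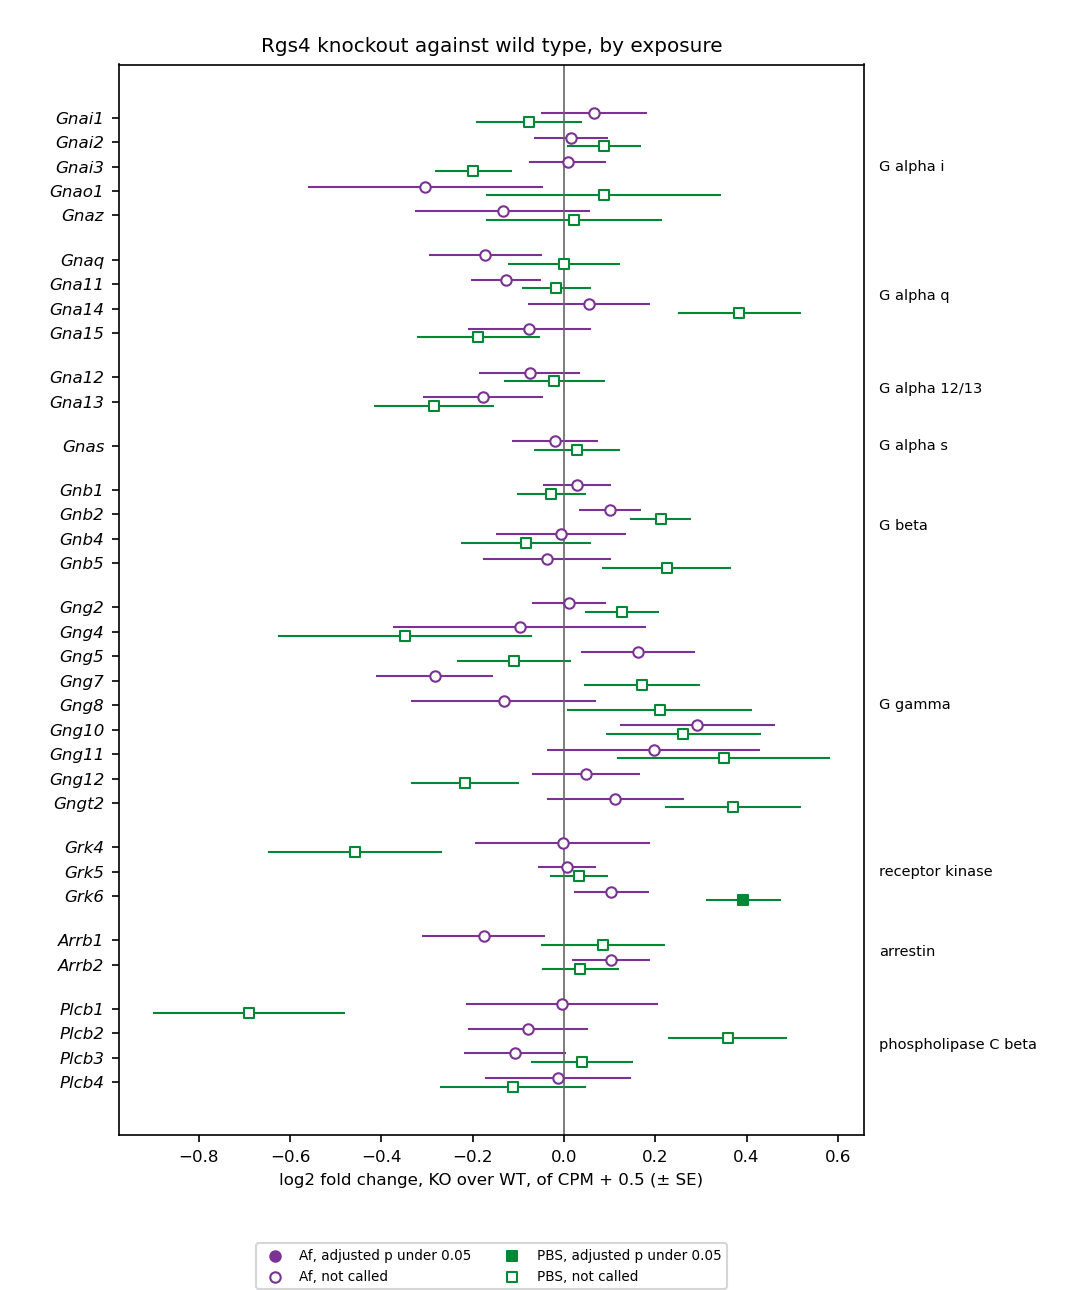
Difference of each tested member between genotypes: the horizontal axis is the log2 fold change, KO over WT, of CPM + 0.5, with bars for the standard error; values under Af are circles, values under PBS squares, 3 libraries per group, and filled symbols have an adjusted p under 0.05. Grk6 under PBS is the only filled symbol, and Plcb1 under PBS lies farthest from 0 at -0.69.

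Under Af, none of the 34 tested members was called between KO and WT lungs by limma, against 0.0868% of all genes. EdgeR and DESeq2 also called 0. An unadjusted limma p under 0.05 was reached by 1807 of the 16126 genes tested and by 1 member. That member was Gng7, at 3.58, 3.68 and 3.01 CPM in KO lungs under Af against 4.41, 4.10 and 4.27 CPM in WT lungs under Af. Its groups did not overlap, and the log2 difference was -0.28 ± 0.13 (adjusted p = 0.446). Grk6 under Af was at 74.9, 81.8 and 82.9 CPM in KO lungs against 82.0, 70.1 and 71.1 CPM in WT lungs, which overlapped, with a difference of 0.10 ± 0.08 (adjusted p = 0.614). Averaged over both exposures limma again called 0 members, against 2.16% of all genes. An unadjusted p under 0.05 was reached by 7 members, beside 3094 of the 16126 genes tested. For members, edgeR called 1 and DESeq2 2. Grk6 came closest, at 0.25 ± 0.06 (adjusted p = 0.0518), and was called without KO Af 12 (0.0242) or WT Af 18 (0.0384), and with all libraries by edgeR (0.0485), DESeq2 (0.00345), array weights (0.000874) and the filter of 1 CPM in all 12 libraries (0.0473).

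The response to Aspergillus was not called different between genotypes for any member. The interaction test by limma called 0 of 34, against 0.0062% of all genes, and edgeR and DESeq2 called 0. An unadjusted limma p under 0.05 was reached by 1750 of the 16126 genes tested and by 4 of the 34 members. These were Gng7 (-0.45 ± 0.18, adjusted p = 0.375), Grk6 (-0.29 ± 0.12, adjusted p = 0.382), Plcb1 (0.69 ± 0.30, adjusted p = 0.427) and Plcb2 (-0.44 ± 0.18, adjusted p = 0.412), as the log2 change in KO lungs minus that in WT lungs. The 8 members called in 1 genotype only were Gna14, Grk4 and Grk6 in WT lungs and Gnb5, Gng8, Gng11, Gng12 and Plcb2 in KO lungs. Their interaction tests had adjusted p between 0.382 and 0.925, so none of the 8 was shown to respond differently.

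The counts of genes that work next to these members are to be read against all genes tested, of which 57.9% were called with Aspergillus in KO lungs (28.7% higher, 29.2% lower) and 51.8% in WT lungs (26.2% higher, 25.6% lower). Among 16 tested genes acting after phospholipase C, 2 rose and 9 fell in KO lungs, and 4 rose and 9 fell in WT lungs. Orai1, the calcium channel of the plasma membrane, rose by 0.73 ± 0.07 in KO and 0.60 ± 0.07 in WT lungs, and Prkce, a protein kinase C, changed by -1.43 ± 0.15 and -1.01 ± 0.15 on the log2 scale. Stim1, of the same list, changed by -0.50 ± 0.07 in WT lungs. Its group means were 66.5 CPM under Af and 94.5 CPM under PBS in KO lungs, and 66.1 CPM and 94.0 CPM in WT lungs. Of 6 genes acting after Gna12 and Gna13, none rose, 3 fell in KO and 2 in WT lungs. Of 5 tested R7 partners of Gnb5, 3 fell in each genotype, with Rgs11 at -2.03 ± 0.15 in KO and -1.90 ± 0.15 in WT lungs, Rgs6 at -1.65 ± 0.17 and -1.09 ± 0.17, and Rgs9 at -1.53 ± 0.21 and -0.79 ± 0.21. Of 8 tested beta-gamma effectors, 1 rose and 4 fell in KO lungs, and 2 rose and 3 fell in WT lungs; Pik3r5, the adaptor of the leukocyte kinase PI3K gamma, changed by 0.76 ± 0.14 in KO and 1.04 ± 0.14 in WT lungs, and Kcnj5, a channel subunit of heart atria, by -2.45 ± 0.46 and -2.17 ± 0.46.

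Of 14 genes of clathrin-mediated receptor uptake, which act beside the arrestins, 7 rose and 2 fell in KO lungs, and 5 rose and 1 fell in WT lungs, beside the 28.7% higher and 29.2% lower of all genes in KO and 26.2% and 25.6% in WT lungs. Ap2s1, a clathrin adaptor subunit, changed by 1.04 ± 0.08 in KO and 0.94 ± 0.08 in WT lungs, and Clta, a clathrin light chain, by 0.97 ± 0.08 and 0.78 ± 0.08. Of 10 tested genes that fold G alpha subunits, exchange their nucleotide or hold them in their GDP form, 1 rose and 3 fell in each genotype. Gpsm1, which holds Gi subunits in their GDP form, changed by -0.84 ± 0.12 in KO and -0.86 ± 0.12 in WT lungs. Gpsm3, a related regulator found in leukocytes, was the only gene of these lists called between genotypes: it was higher in KO than in WT lungs under PBS by 0.53 ± 0.09 (adjusted p = 0.011). Of 4 tested G protein, receptor kinase and arrestin genes outside the members, 1 rose and 2 fell in KO lungs, and 1 rose and 1 fell in WT lungs. Grk3 changed by -0.73 ± 0.15 in KO and -0.45 ± 0.15 in WT lungs, and Grk2, the ubiquitous receptor kinase, by 0.43 ± 0.10 in WT lungs.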

How the data were processed

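Gene-level values came from 1 table of 12 mouse lung libraries, 3 per group, which the authors deposited as counts per 1000000 reads (CPM) scaled by TMM, a signal rather than raw counts. Per the submitters' processing notes, the tools were cutadapt 1.18, STAR 2.7.6a and RSEM 1.3.0, and the builds GRCm38 and GRCh38, with no role stated; the sources do not say whether strand was used in counting. All columns were used. CPM steps gave whole reads for 100% of values within 0.01 of a read.

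The 16126 of 49585 genes that reached 1 CPM in 3 or more libraries were tested with limma 3.58.1 (R 4.3.3, mean-variance trend) on log2(CPM + 0.5), which understates changes of low genes, in 1 fit of 4 groups with 8 residual degrees of freedom. P-values were adjusted by Benjamini-Hochberg over all genes tested, and fold changes are from that fit. The fit was also run on simulated counts in which a small set of genes changed in the KO PBS libraries alone. That setting does not cover changes as widespread as those with Aspergillus, and its outcome is not given here. Alternatives were edgeR 4.0.16 and DESeq2 1.42.0 on the recovered reads, other pseudocounts, filters and scalings, array weights, and leaving out libraries. Library numbers are unique, so no libraries were paired. Precision rests on 3 libraries per group; intervals of counting error were not used.

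Levels between genes are CPM per kilobase of merged exons (GENCODE M21); 99.5% of the table's gene identifiers matched. Same-strand exons of other genes overlap Gng10, Gnb2 and Arrb2, and opposite-strand exons overlap Gnao1, Gna12, Gna13, Gnas, Gnb5, Gng2, Gng3, Gng12, Gngt2, Plcb1 and Plcb3, so their counts are uncertain to that extent. RefSeq promoter windows were at hand for 28 of 36 members. The members, marker lists and pathway lists were chosen with earlier results of these data known. Values in all libraries are given for members called between genotypes, the 12 largest called Aspergillus changes, and the highest of each class per kilobase; Grk5, Plcb1 and Gnb2 were added after their values were seen. Up to 3 genes of each pathway list, those with the smallest p, could be named.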

Additional observations from a re-analysis of the deposited data

How the results depend on the processing

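Counts of members called with Aspergillus stayed within 1.5 times under every alternative run: 17 to 27 in KO lungs, against 21, and 17 to 25 in WT lungs, against 19. No called member changed sign under any alternative. Counts between genotypes were small and moved. Under PBS, where limma called 1, DESeq2 called 3, fitting the compared groups alone 3, array weights 7, and leaving out 1 library 0 to 4. Under Af, where limma called 0, array weights called 2. Averaged over exposures, where limma called 0, edgeR called 1, DESeq2 2, array weights 6, the filter of 1 CPM in all 12 libraries 1, leaving out WT PBS 17 and KO Af 12 together 1, and leaving out 1 library 0 to 1. In the interaction, where limma called 0, array weights called 1. The cause of these shifts was not tested. Apart from scaling to the same total, calls over all genes are not given for these alternatives. The shifts in the counts of members therefore cannot be read as particular to the members. Over single members and comparisons, array weights added 27 calls, DESeq2 8 and the compared groups alone 6. Of 41 calls of members, no filter, edgeR and the compared groups alone each lost 1, Gng11 in KO lungs; without a filter the rare Gnb3 was also called in WT lungs. Scaling each library to the same total moved the median of all genes by 0.07 or less on the log2 scale and lost no call; over all genes it gave 6 higher and 14 lower calls between genotypes under Af, against 6 and 8, and 1 higher and 4 lower in the interaction, against 1 and 0. No paired analysis was possible because each library number belongs to 1 library. With 3 libraries per group, members under about 3 CPM, such as Gnaz, Gng4, Gng8 and Grk4, rest on few reads.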

Other observations

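KO Af library 12, which lay apart from the other 11 libraries on the second principal component, also lay apart from its group for several members, a pattern noticed after the values were seen. It was the highest of the 3 KO Af libraries for Gng5 at 164 CPM, against 111 and 118 CPM in the other two, for Gng10 at 73.5 CPM, against 41.6 and 46.2 CPM, for Gng11 at 73.1 CPM, against 34.8 and 33.9 CPM, and for Gngt2 at 35.4 CPM, against 22.6 and 22.3 CPM. It was the lowest of the 3 for Gnaq at 68.1 CPM, against 101 and 94.2 CPM, for Gna13 at 114 CPM, against 165 and 165 CPM, and for Arrb1 at 157 CPM, against 232 and 185 CPM. What sets this library apart was not tested.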
